A study of Mus musculus with 13 samples.

Results

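A set of 10 genes used as markers of liver tumors, hepatic progenitor cells and bile duct cells was followed in liver RNA of WT and *Nod2*-/- mice. These were *Afp*, *Gpc3* and *Golm1* (oncofetal genes), *Sox9*, *Epcam*, *Cd24a* and *Prom1* (progenitor genes), and *Krt7*, *Krt19* and *Spp1* (biliary and matrix genes). The 10 genes were chosen by name from the 53465 genes of the count table, and all 10 passed the filter on low counts. Poly(A) RNA from the livers of individual male mice was sequenced, with 1 library for each of 6 WT mice (W1 to W6) and 7 *Nod2*-/- mice (N1 to N7). *Nod2* encodes an intracellular receptor for bacterial peptidoglycan fragments. Both groups were BALB/c mice that had the carcinogen dimethylbenz[a]anthracene (DMBA) applied to the skin as pups and were then fed a high fat diet (HFD), so no untreated or chow-fed mouse is part of the comparison. The labels give an age of 30 weeks, 30 weeks of HFD and the disease state cancer for all 13 mice, while the study's methods give a slightly longer time on the diet. The study reported liver tumors in most *Nod2*-/- males but only in a minority of WT males under this treatment. The label therefore does not tell which of the sequenced mice had tumors. The WT mice were not littermates of the *Nod2*-/- mice, and the study's methods say that tumors were sampled apart from the liver where this could be done, without stating whether a sequenced liver piece held tumor tissue.

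In the healthy adult liver, hepatocytes express little AFP, a serum protein of the albumin family that the fetal liver secretes. AFP, the cell surface proteoglycan glypican-3 and the Golgi membrane protein encoded by *Golm1* are all known as products of hepatocellular carcinoma. SOX9, EPCAM, CD24 and prominin-1 (CD133) mark bile duct cells or the progenitor-like cells that appear around the ducts of injured liver, keratins 7 and 19 are intermediate filament proteins of the duct epithelium, and *Spp1* encodes osteopontin, a secreted matrix protein made by duct cells and by macrophages.

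Each library held 13824780 to 20579984 counts. Genes that define hepatocytes were abundant in all 13 livers, with 97156 to 198510 CPM (counts scaled by the library total) summed over 10 genes. *Nod2* itself reached 4 counts at most in WT and 6 at most in *Nod2*-/- livers, too few to check the genotypes. Lung epithelial genes were found in part of the libraries, with a summed level of 15.1 to 207 CPM in the WT group and 3.89 to 34.8 in *Nod2*-/- mice over 16 genes. W4 and W2 had the highest sums, 207 and 116. The liver samples were bulk tissue, in which more cells of a type and more RNA per cell cannot be told apart.

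A group of 5 members, *Afp*, *Gpc3*, *Golm1*, *Prom1* and *Spp1*, had levels that moved together from mouse to mouse, as described further on, and the sequences around their transcription starts are therefore shown first. Each window is the 300 bases from 250 bases before to 50 bases after the RefSeq start, 5′ to 3′ on the strand of the gene, in build GRCm38.p6. The windows are chr5:90490464-90490763 (+) for *Afp*, chrX:52613925-52614224 (-) for *Gpc3*, chr13:59675735-59676034 (-) for *Golm1*, chr5:44101687-44101986 (-) for *Prom1* and chr5:104434861-104435160 (+) for *Spp1*. Capitals mark matches, on either strand, to 6 short motifs.
Afp: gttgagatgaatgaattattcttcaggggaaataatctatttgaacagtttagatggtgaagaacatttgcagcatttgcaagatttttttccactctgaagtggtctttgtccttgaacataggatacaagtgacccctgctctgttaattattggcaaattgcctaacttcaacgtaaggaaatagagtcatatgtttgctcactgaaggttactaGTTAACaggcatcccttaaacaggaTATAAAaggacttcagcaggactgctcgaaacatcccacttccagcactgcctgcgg
Gpc3: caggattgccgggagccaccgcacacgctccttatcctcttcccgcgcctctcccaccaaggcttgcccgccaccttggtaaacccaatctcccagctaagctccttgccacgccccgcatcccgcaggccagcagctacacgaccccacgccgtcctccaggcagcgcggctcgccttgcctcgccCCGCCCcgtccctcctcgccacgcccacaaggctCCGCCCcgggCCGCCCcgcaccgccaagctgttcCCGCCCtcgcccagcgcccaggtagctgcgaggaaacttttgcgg
Golm1: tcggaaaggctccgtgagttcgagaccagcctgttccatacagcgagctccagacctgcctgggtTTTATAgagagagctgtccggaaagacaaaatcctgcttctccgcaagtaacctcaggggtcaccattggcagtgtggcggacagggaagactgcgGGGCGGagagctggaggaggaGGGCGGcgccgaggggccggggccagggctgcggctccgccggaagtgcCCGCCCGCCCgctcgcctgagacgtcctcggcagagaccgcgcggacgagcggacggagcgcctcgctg
Prom1: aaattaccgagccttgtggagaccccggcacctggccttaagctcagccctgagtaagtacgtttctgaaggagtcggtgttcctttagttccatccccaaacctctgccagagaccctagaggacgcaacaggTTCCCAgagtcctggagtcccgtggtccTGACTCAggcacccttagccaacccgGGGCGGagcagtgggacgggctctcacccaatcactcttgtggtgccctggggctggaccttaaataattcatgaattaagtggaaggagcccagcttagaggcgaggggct
Spp1: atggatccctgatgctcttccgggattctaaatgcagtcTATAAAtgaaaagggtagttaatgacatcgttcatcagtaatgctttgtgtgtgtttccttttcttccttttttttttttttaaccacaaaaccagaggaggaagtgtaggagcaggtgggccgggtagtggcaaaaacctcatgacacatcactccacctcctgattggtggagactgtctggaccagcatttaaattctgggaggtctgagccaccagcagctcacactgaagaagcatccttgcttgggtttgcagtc

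The motifs were GTTAAC (part of the site of the hepatocyte factor HNF1), TATAAA (the TATA box), GGAATG (TEAD factors), TGGGAA (RBPJ, the nuclear effector of Notch), TGANTCA (AP-1) and GGGCGG (SP1). Among 32851 promoter windows of the same length, 3.05% held the HNF1 motif, 13.6% the TATA box, 14.7% the TEAD, 25.6% the RBPJ, 7.81% the AP-1 and 35.7% the SP1 motif. The *Afp* window held the HNF1 motif starting 32 bases and the TATA box starting 7 bases before the RefSeq start. The GENCODE start of *Afp*, at 90490737, lies downstream of the RefSeq start, so both motifs are farther from it. The *Gpc3* window held 4 SP1 matches. The *Golm1* window held 4 SP1 matches, of which the last pair shares bases, and a TATA box match 185 bases before the start. The *Prom1* window held 1 match each to the RBPJ, AP-1 and SP1 motifs, and the *Spp1* window held the TATA box alone, 211 bases before the start. No single motif of the 6 was present in all 5 windows. The table of promoters holds a further window for a downstream start of *Prom1*, with 1 AP-1 match, and of *Spp1*, with none of the 6 motifs, and these are not shown. *Epcam* and *Krt7* also have an entry in the table of promoters, with 1 and 4 SP1 matches.

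*Afp* (ENSMUSG00000054932.6, chromosome 5, 90490737 to 90508907 of GRCm38) had from 20.8 to 2257 normalized counts in WT mice (median 57.9) and from 47.8 to 803 in *Nod2*-/- mice (median 342). Normalized counts are the counts after each library was scaled to a common effective size. The highest level of all 13 mice was that of a WT mouse, W3, and the other 5 WT mice had 20.8 to 119. Of the 7 *Nod2*-/- mice, 6 were above the WT median, but the groups overlapped. The mean was 424 ± 899 (SD, n = 6) in WT and 433 ± 321 (SD, n = 7) in *Nod2*-/- mice, and W3 held 88.7% of the WT sum. edgeR's quasi-likelihood test gave a log2 fold change of *Nod2*-/- against WT of 0.02 (SE 0.99, the standard error, adjusted p = 0.991), and the difference of mean log2 levels, in which W3 counts for less, was 1.72 (two-sided exact permutation test, p = 0.149). Without W3 the edgeR log2 fold change was 2.88 (SE 0.68, edgeR adjusted p = 0.0287).

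*Gpc3* (ENSMUSG00000055653.13, chromosome X, 52272426 to 52613950) had from 19.5 to 975 normalized counts in WT mice (median 61.2) and from 17.1 to 1215 in *Nod2*-/- mice (median 243). Both groups spanned nearly the whole range, with N6 lowest and N4 highest of all mice and W3 highest of the WT mice. Its log2 fold change was 0.70 (SE 0.92, edgeR adjusted p = 0.676) and was 2.12 (SE 0.87, edgeR adjusted p = 0.132) without W3, so neither fit separated the genotypes. *Golm1* (ENSMUSG00000021556.12, chromosome 13, 59634626 to 59675811) ranged from 17.5 to 513 normalized counts in WT mice (median 66.1) and from 76.2 to 450 in *Nod2*-/- mice (median 302). All 7 *Nod2*-/- mice were above the WT median and 6 were above 5 of the 6 WT mice, W3 being the exception with the highest level of all. The log2 fold change of *Golm1* was 1.07 (SE 0.65, edgeR adjusted p = 0.338), and without W3 it was 2.33 (SE 0.48, edgeR adjusted p = 0.0188). The difference of mean log2 levels was 1.77 with W3 included (two-sided exact permutation test, p = 0.0367, Benjamini-Hochberg adjusted p over all genes tested 0.199). *Golm1* overlaps *Naa35* on the opposite strand, which had up to 659 counts, and whether strand was used in counting is not given in the sources used here.

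**Figure D1:**
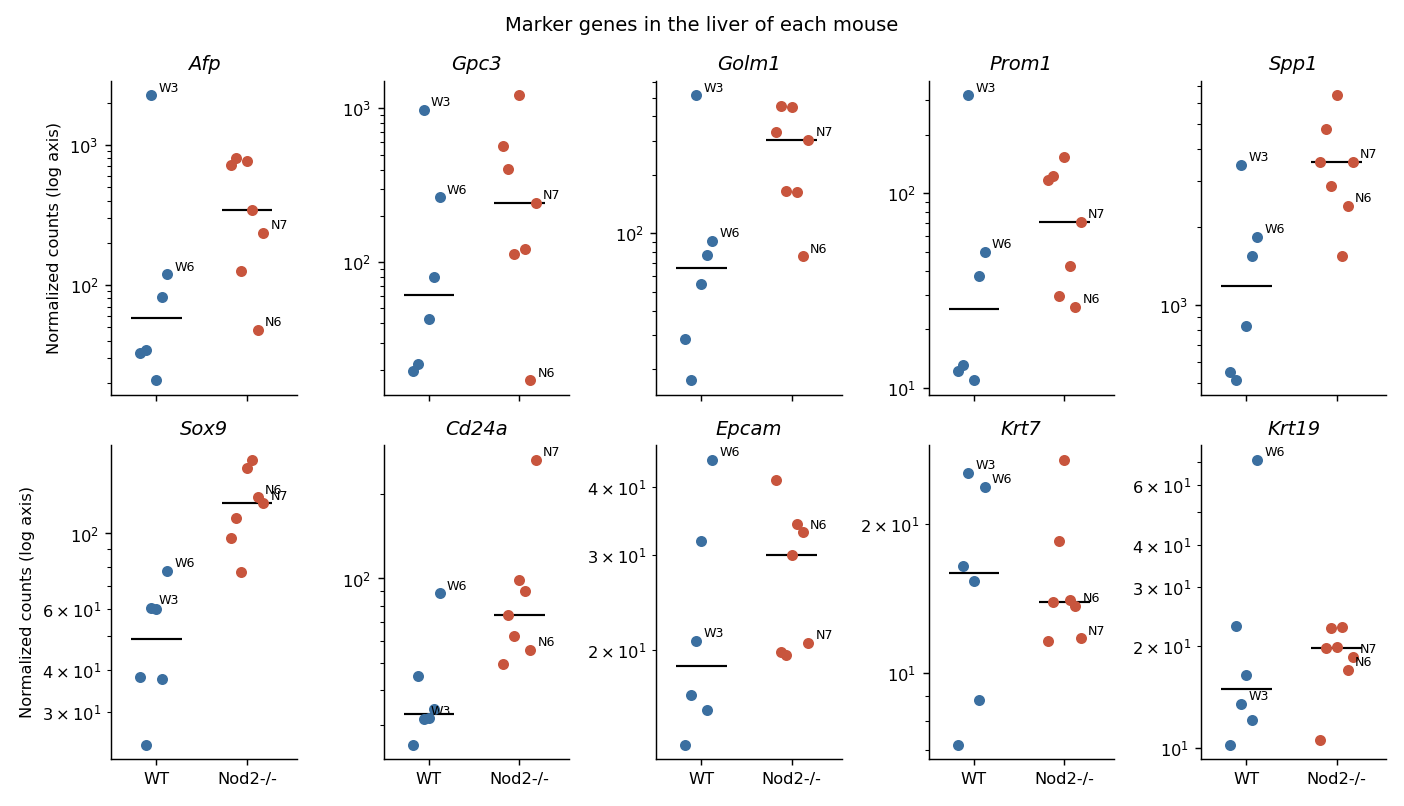
Normalized counts of the 10 marker genes in each of 6 WT (blue) and 7 *Nod2*-/- mice (red), on a log axis that differs between panels. Points are mice, lines are group medians, and W3, W6, N6 and N7 are named. W3 lies above all other WT mice in the 5 panels of the upper row, and in the *Sox9* panel nearly all *Nod2*-/- mice lie above the WT mice.

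Of the progenitor genes, *Sox9* (ENSMUSG00000000567.5, chromosome 11, 112782224 to 112787760), a transcription factor of duct and progenitor cells, had from 24.1 to 77.8 normalized counts in WT mice (median 49.1) and from 77.0 to 164 in *Nod2*-/- mice (median 123). In 6 of the 7 *Nod2*-/- mice the level was above that of every WT mouse, and the lowest, N3, was just under the highest WT mouse, W6. *Sox9* rose 2.46-fold from a mean of 49.7 ± 19.8 (SD, n = 6) to 122 ± 30.8 (SD, n = 7), with a log2 fold change of 1.29 (SE 0.25, edgeR adjusted p = 0.0324). The two-sided exact permutation test of log2 levels gave p = 0.00117, where 6 against 7 mice allow no p below 0.000583. Adjusted over all genes tested, this permutation p was 0.0863. The lowest adjusted value of any gene was 0.0745, so no gene passed 5% FDR by the permutation test. In the edgeR fit *Sox9* was the 1 member of 10 that was past 5% FDR and higher in *Nod2*-/- mice, and 0 members were lower. Over all 13545 genes tested, 0.65% were higher and 0.509% lower at that threshold. At an unadjusted p under 0.05, *Sox9*, *Cd24a* and *Spp1* were higher, beside 12.9% of all genes. The exact permutation test of log2 levels gave an unadjusted p under 0.05 for these 3 and *Golm1*, beside 11.7% of all genes. *Sox9* and *Cd24a* are also among genes that the study itself chose on these samples, so their direction here is not independent of that choice. The *Sox9* result was close to the threshold, since 7 of the 13 fits that each left out 1 mouse gave an adjusted p above 0.05, while the log2 fold change stayed between 1.15 and 1.46.

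*Cd24a* (ENSMUSG00000047139.9, chromosome 10, 43578284 to 43584265), a small glycosylated surface protein of progenitor cells and also of neutrophils and immature blood cells, had from 25.6 to 88.4 normalized counts in WT mice (median 33.0) and from 49.7 to 265 in *Nod2*-/- mice (median 74.4). All 7 *Nod2*-/- mice were above the WT median and above 5 of the 6 WT mice, and only W6 reached into their range. edgeR gave a log2 fold change of 1.21 (SE 0.41, edgeR adjusted p = 0.112) and the difference of mean log2 levels was 1.09 (two-sided exact permutation test, p = 0.0157, adjusted over all genes tested 0.146). N7 had 3.86 times the median of the other *Nod2*-/- mice. The 10 neutrophil genes were also highest in N7, all 10 of them, with a summed level of 999.7 CPM there against 6.05 to 41.7 in the other *Nod2*-/- mice and 4.16 to 9.52 in WT mice, and 9 of 10 erythroid genes were highest in N7. Without N7 the *Cd24a* log2 fold change was 0.74 (edgeR adjusted p = 0.212). DESeq2 placed *Cd24a* past 5% FDR with all mice (log2 fold change 1.19, adjusted p = 0.0425). Copies of *Cd24a* elsewhere in the genome share its sequence, and how such reads were counted is not given in the sources used here.

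*Prom1* (ENSMUSG00000029086.15, chromosome 5, 43993620 to 44102032), a membrane protein of cell surface protrusions, ranged from 11.0 to 318 normalized counts in WT mice (median 25.4) and from 26.2 to 154 in *Nod2*-/- mice (median 71.5). All *Nod2*-/- mice were above the WT median, and W3 had the highest level of all and 72.0% of the WT sum. Its log2 fold change was 0.11 (SE 0.74, edgeR adjusted p = 0.943), and 1.67 (SE 0.54, edgeR adjusted p = 0.0677) without W3. *Epcam* (ENSMUSG00000045394.8, chromosome 17, 87635979 to 87651129), a cell adhesion protein of epithelia, had from 13.3 to 45.0 normalized counts in WT mice (median 18.6) and from 19.5 to 41.2 in *Nod2*-/- mice (median 29.9). The range of the *Nod2*-/- mice lay inside that of the WT mice, and W6 had the highest level. The log2 fold change of *Epcam* was 0.24 (SE 0.30, edgeR adjusted p = 0.661).

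The duct keratins had low counts in both genotypes, and neither passed the test. *Krt7* (ENSMUSG00000023039.16, chromosome 15, 101411043 to 101430313) had from 7.18 to 25.3 normalized counts in WT mice (median 15.9) and from 11.6 to 26.9 in *Nod2*-/- mice (median 13.9). *Krt19* (ENSMUSG00000020911.14, chromosome 11, 100140810 to 100148665) had from 10.3 to 71.2 normalized counts in WT mice (median 15.0) and from 10.6 to 22.9 in *Nod2*-/- mice (median 19.8). For both keratins the range of one group covered most of the other, and the *Krt19* level of W6 was 5.25 times the median of the other WT mice. In the edgeR fit *Krt7* had a log2 fold change of -0.05 (SE 0.31) and *Krt19* of -0.40 (SE 0.41), with adjusted p-values of 0.943 and 0.587. Without W6 the *Krt19* value changed sign, to 0.32 (adjusted p = 0.451). The *Krt7* value changed sign without W3 (0.11) and with voom (0.16), so no direction can be given for it. Lung epithelium also expresses *Epcam*, *Krt7* and *Krt19*, and W4 and W2, in which the lung genes were highest, had 31.8 and 16.4 normalized counts of *Epcam*, 15.3 and 16.4 of *Krt7*, and 16.4 and 23.0 of *Krt19*. The part of lung tissue in these levels was not tested.

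*Spp1* (ENSMUSG00000029304.14, chromosome 5, 104435118 to 104441050) was the most abundant member, with 511 to 3456 normalized counts in WT mice (median 1182) and 1541 to 6425 in *Nod2*-/- mice (median 3536). All 7 *Nod2*-/- mice were above the WT median and 4 were above every WT mouse, and W3 was again the highest WT mouse. In the edgeR fit the log2 fold change was 1.30 (SE 0.44, edgeR adjusted p = 0.109), and the difference of mean log2 levels was 1.52 (two-sided exact permutation test, p = 0.0111, adjusted over all genes tested 0.132). Without W3 the log2 fold change was 1.76 (SE 0.39, edgeR adjusted p = 0.0243). Macrophages that take up lipid also make osteopontin, and the summed level of 10 of their genes was 26.5 to 144 CPM in WT and 79.1 to 382 in *Nod2*-/- mice. The part of these cells in the *Spp1* level was not tested.

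With all 13 mice, no member had groups that did not overlap, against 0.753% of all genes in which every *Nod2*-/- mouse was above every WT mouse. Leaving out W3 changed the result most. Without it, *Afp*, *Golm1*, *Sox9* and *Spp1* were past 5% FDR and higher in *Nod2*-/- mice, 4 of the 10 members, beside 5.13% of all genes (3.37% were lower). When N7 was left out as well, the same 4 genes passed, beside 3.04% of all genes (1.19% were lower). W3 was the highest WT mouse for *Afp*, *Golm1* and *Spp1*, so a fit without it lowers their WT level by construction. The fits without W3 are therefore no separate evidence for these genes. limma's voom with quality weights, which gives variable libraries less weight and kept all 13 mice, placed *Golm1* (log2 fold change 2.12, adjusted p = 0.0373), *Sox9* and *Spp1* (1.73, adjusted p = 0.0269) past 5% FDR, beside 3.83% of all genes (2.39% were lower). DESeq2 placed *Sox9* and *Cd24a* past it, beside 3.81% of all genes (3.45% were lower). A fit with the replicate number as a block called 0 members, and it called 0.126% of all genes higher and 0.133% lower.

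**Figure D2:**
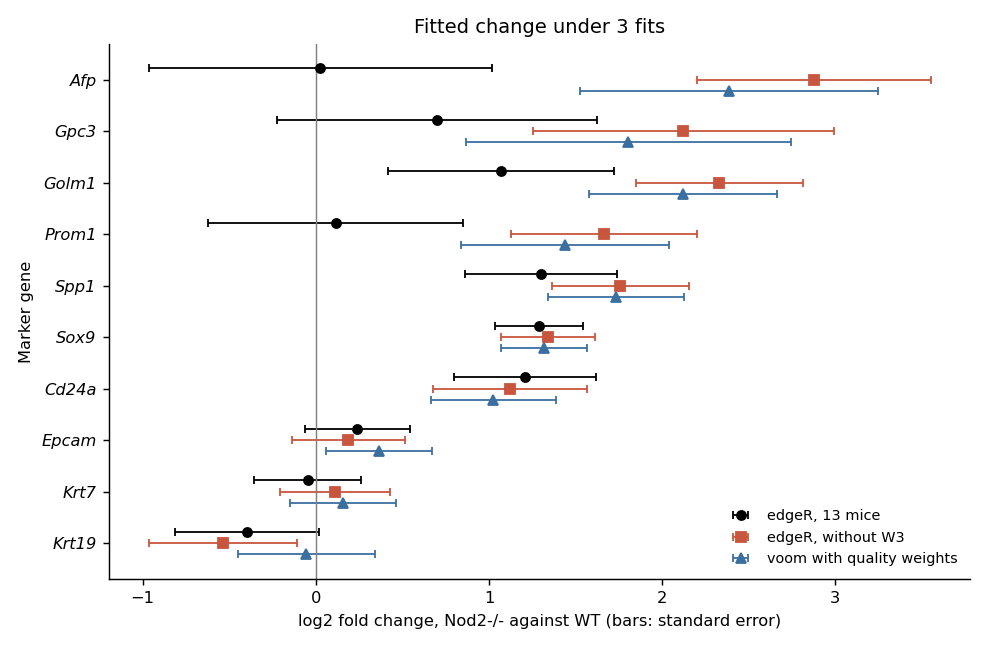
Log2 fold changes of *Nod2*-/- against WT for the 10 marker genes, with bars for the standard error, from edgeR with 13 mice (black circles), edgeR without W3 (red squares) and voom with quality weights (blue triangles). *Sox9* and *Cd24a* differ little between the fits, while *Afp* goes from 0.02 to 2.88 without W3.

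W3 did not have high levels of all markers. Relative to the median of the other WT mice, its level was 66.4-fold for *Afp*, 24.2-fold for *Prom1*, 22.8-fold for *Gpc3*, 9.36-fold for *Golm1* and 4.18-fold for *Spp1*, but 1.65-fold for *Krt7*, 1.60-fold for *Sox9*, 1.26-fold for *Epcam*, 0.924-fold for *Cd24a* and 0.824-fold for *Krt19*. Over all genes tested, W3 was at least 5 times the median of the other WT mice in 1.25%. W3 had the highest level of all 13 mice for 3 members, W6 for 2, N4 for 3 and N7 for 1, where these mice were highest for 11.5%, 4.78%, 13.1% and 11.7% of all genes. W6 was the highest WT mouse for *Sox9*, *Epcam*, *Cd24a* and *Krt19*. Among *Nod2*-/- mice, N4 had the highest level of *Gpc3*, *Spp1* and *Krt7*, N5 that of *Sox9* and N7 that of *Cd24a*, and N6 had the lowest level of *Afp*, *Gpc3*, *Golm1* and *Prom1*. The spread within genotypes differed accordingly. The pooled SD of log2 levels was 2.07 for *Gpc3*, the highest of the members, 1.44 for *Prom1* and 1.31 for *Golm1*, at percentiles 99.8, 99.0 and 98.7 of the genes tested, and *Afp* was also at percentile 99.8. It was 0.88 for *Spp1* (percentile 95.6) and 0.49 for *Sox9* (percentile 80.1), where the median gene had 0.28.

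**Figure D3:**
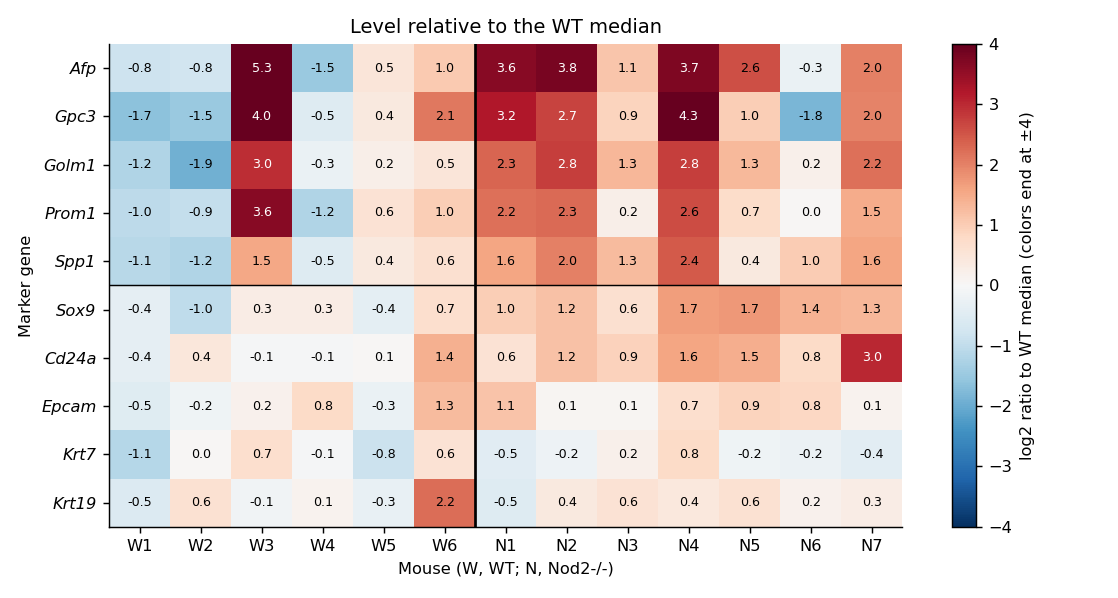
Level of each marker gene (rows) in each mouse (columns) as the log2 ratio to the median of the WT mice, printed in the cells. Red is above and blue below that median, and W3 is the reddest WT column in the upper 5 rows, where its *Afp* value is 5.3.

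The levels of the members were next compared across the 13 mice after the mean of each genotype was removed, so that the genotype difference did not enter. Of the 45 pairs of members, 10 had a correlation past 5% FDR, and these were the 10 pairs among *Afp*, *Gpc3*, *Golm1*, *Prom1* and *Spp1*. Their Pearson r was 0.777 to 0.966 and their Spearman rho 0.747 to 0.962 (permutation test with 100000 resamples, adjusted p over 45 pairs from 0.00018 to 0.00661 for r and from 0.00045 to 0.0209 for rho). The highest r was that of *Afp* and *Prom1* and the lowest that of *Afp* and *Spp1*. Without the 2 mice farthest from the median of the first gene of a pair, r was 0.677 to 0.943, and within the 7 *Nod2*-/- mice alone it was 0.550 to 0.957. So a liver with much *Afp* also had much *Gpc3*, *Golm1* and *Prom1* in both genotypes, in W3 as in N4, N1 and N2. *Krt7*, *Krt19* and *Epcam* had r of 0.435 to 0.577 among each other (adjusted p from 0.122 to 0.279), and -0.05 to 0.557 with the 5 genes above (adjusted p from 0.152 to 0.957). *Sox9* had its highest r with *Epcam* (0.671, rho 0.615, adjusted p = 0.0506) and *Cd24a* with *Krt19* (0.626, rho 0.621, adjusted p = 0.122), neither past the threshold. The 13 points of each pair share their libraries.

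**Figure D4:**
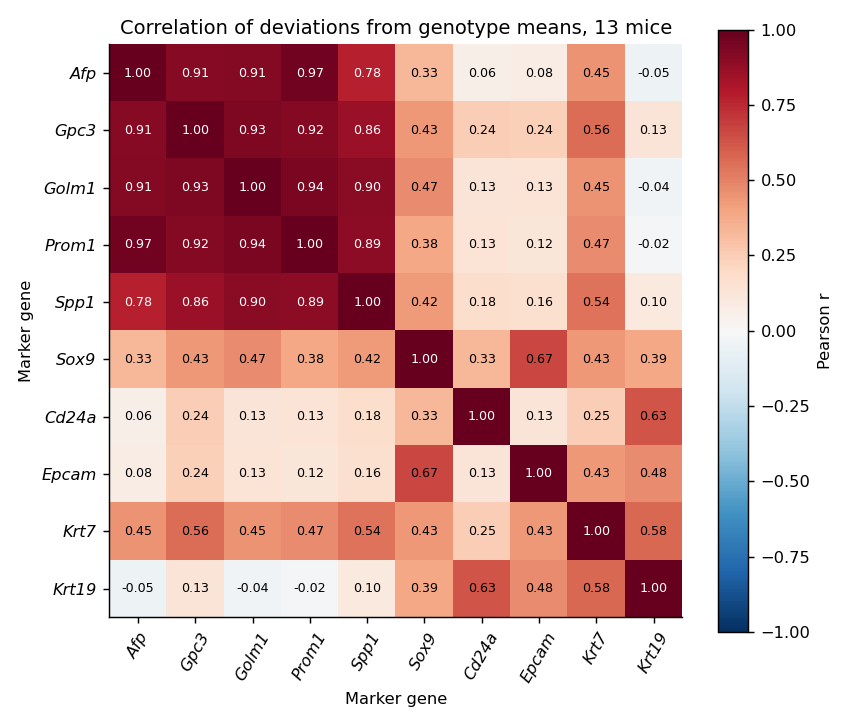
Pearson r between the marker genes (rows and columns) over 13 mice, from log2 normalized counts after the mean of each genotype was removed. The upper left block of 5 genes holds r of 0.777 to 0.966, and the values elsewhere are lower.

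Over 11502 genes with an average level of at least 1 log2 CPM, the genes whose deviations were most like those of a member were looked up. They were *Cdhr2*, a protocadherin of brush borders, for *Afp* (r = 0.970), *Erich4* for *Gpc3* (0.979), *Smox*, spermine oxidase, for *Golm1* (0.972), *Tspan8*, a tetraspanin, for *Prom1* (0.979) and *Sectm1a* for *Spp1* (0.968). *Prom1* was also the second most similar gene to *Afp*, and *Pak1*, a protein kinase, was among the 3 most similar genes of both *Golm1* and *Prom1* (0.964 and 0.976). The highest values of the other members were lower. They were 0.895 for *Epcam* with *Zfp189*, 0.883 for *Cd24a* with *Sp140*, 0.882 for *Sox9* with *Ddit4*, 0.852 for *Krt7* with *Dyrk1a* and 0.848 for *Krt19* with *Amigo1*. These are descriptions over 13 libraries, and each was picked as the highest among the genes searched.

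Levels of different genes were compared per length, in RPKM, which are CPM divided by the exon length in kilobases. The median over 13 mice was 88.1 for *Spp1*, 2.72 for *Gpc3*, 2.24 for *Afp*, 2.23 for *Golm1*, 1.30 for *Cd24a*, 1.13 for *Sox9*, 0.605 for *Krt19*, 0.570 for *Epcam*, 0.354 for *Prom1* and 0.120 for *Krt7*. *Spp1* was above the next gene in 13 of 13 mice. The neighbours below it did not keep their order in all mice, with the higher gene ahead in 5 to 11 of 13.

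Lists of related genes showed whether the relatives of the members moved with them, and the median log2 fold change of all genes tested was 0.02. The median of the 10 members was 0.47 in the edgeR fit and 1.50 without W3, and their median difference of mean log2 levels was 1.18 with all mice (0.014 over all genes tested). Of the albumin family, to which *Afp* belongs, 4 genes were tested and 0 passed 5% FDR, with *Alb* at a log2 fold change of 0.21 (adjusted p = 0.599) and *Afm* at -0.05 (adjusted p = 0.867). Of 12 transcription factors that act on the *Afp* gene in liver, 0 passed. At an unadjusted p under 0.05, 1 was higher, beside 12.9% of all genes, and 4 were lower. The share of all genes lower at that level was not computed, so the 4 are no result about these factors. *Hnf4a*, a nuclear receptor of hepatocytes, had 10142 to 13030 normalized counts in WT and 7462 to 10346 in *Nod2*-/- mice, and -0.34 as its log2 fold change (adjusted p = 0.0805), and *Zbtb20*, a repressor of *Afp* after birth, had a log2 fold change of -0.62 (adjusted p = 0.0855). Of 19 other oncofetal genes found, 9 were tested, and all 9 had positive values. Of these, 5 had an unadjusted p under 0.05, beside 12.9% of all genes, but 0 passed 5% FDR. Without W3, 6 of these 9 passed and were higher, beside 5.13% of all genes. Leaving out W3 raised the higher genes over all from 88 to 698. The counts without W3 for this and the following lists are therefore no separate evidence. Of the genes under the filter, *Igf2*, *Igf2bp1* and *Lin28b* had 1 count at most. *Dlk1* and *Sall4* had a lower mean in *Nod2*-/- mice, and *Igf2bp3*, *Lin28a*, *Hmga2*, *Peg10* and *Mdk* a higher one. For *Dlk1* this came from W2 (28.5 normalized counts), and its median was 1.78 in WT and 2.99 in *Nod2*-/- mice. *Lin28a* had counts in N7 alone, *Sall4* had 4 counts at most and *Hmga2* 2. No direction can be given for these genes. *Lcn2*, which encodes a siderophore-binding protein that neutrophils also make, had a log2 fold change of 3.86 (adjusted p = 0.0734) and its highest level in N7, and the glycolytic enzyme gene *Pkm* had 0.69 (adjusted p = 0.129). The study also named *Lcn2* as raised in these samples, so its direction is not independent of that choice. Among 4 glypicans tested, *Gpc6* had 1.28 (adjusted p = 0.174) and *Gpc1* 0.13 (adjusted p = 0.656), with 0 past the threshold.

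Of 17 other biliary genes tested, 1 changed. Without W3, 2 were higher and 2 lower, beside 5.13% and 3.37% of all genes. *Onecut1*, a transcription factor of hepatocyte and duct development, had from 270 to 732 normalized counts in WT mice (median 448) and from 103 to 393 in *Nod2*-/- mice (median 124), and fell by 1.44 on the log2 scale (SE 0.32, edgeR adjusted p = 0.0422). Only N1 lay within the WT range. The 6 tested keratins held 0 genes past 5% FDR, with *Krt23* at -0.85 (adjusted p = 0.378) and *Krt18*, of hepatocytes, at 0.26 (adjusted p = 0.436). Of 10 other progenitor genes tested, all 10 had positive values with a median of 0.96, where 52.3% of all genes were positive. Without W3, 5 passed, beside 5.13% of all genes that were higher, and with all mice 1 passed. That gene, *Icam1*, encodes an adhesion molecule of many cell types, and rose from 78.9 to 248 normalized counts in the WT group to 217 to 590 in *Nod2*-/- mice (log2 fold change 1.21, SE 0.28, edgeR adjusted p = 0.049), with its highest level in N7. *Icam1* is also among the raised genes that the study named from these samples. Of the 14 list genes with more than 3 counts, 7 were highest in N7.

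Among 17 genes of the Notch and YAP pathways tested, *Tead2*, a DNA-binding partner of YAP, rose, and the other 16 did not pass. Without W3, 3 genes of this list passed and were higher, beside 5.13% of all genes. *Tead2* had 6.58 to 12.3 normalized counts in the WT group and 14.8 to 36.9 in *Nod2*-/- mice, without overlap (log2 fold change 1.19, SE 0.25, edgeR adjusted p = 0.0381). Of 8 osteopontin receptor genes, *Itga5*, the alpha chain of an integrin, rose from 151 to 251 normalized counts in the WT group to 300.3 to 482 in *Nod2*-/- mice, also without overlap (log2 fold change 0.71, SE 0.14, edgeR adjusted p = 0.0347). All 8 receptor genes had positive values, with a median of 0.45, and 2 passed without W3, beside 5.13% of all genes. Of these 8 genes, 4 were highest in N7. Of 9 proliferation genes tested, all 9 had positive values, with a median of 1.33. An unadjusted p under 0.05 was found for 7 of them, beside 12.9% of all genes, but 0 passed 5% FDR. Without W3, 2 passed, beside 5.13% of all genes that were higher. The study named *Cdk1*, *Ccna2*, *Ccnb1*, *Plk1* and *Nusap1* of this list as raised in these same samples. The counts for this list are therefore not independent of that choice. *Cdk1* was at 0.89 (edgeR adjusted p = 0.0966) and *Aurka* at 0.65 (edgeR adjusted p = 0.107). Of the 12 proliferation genes with more than 3 counts, 7 were highest in N7, which was highest for 11.7% of all genes.

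**Figure D5:**
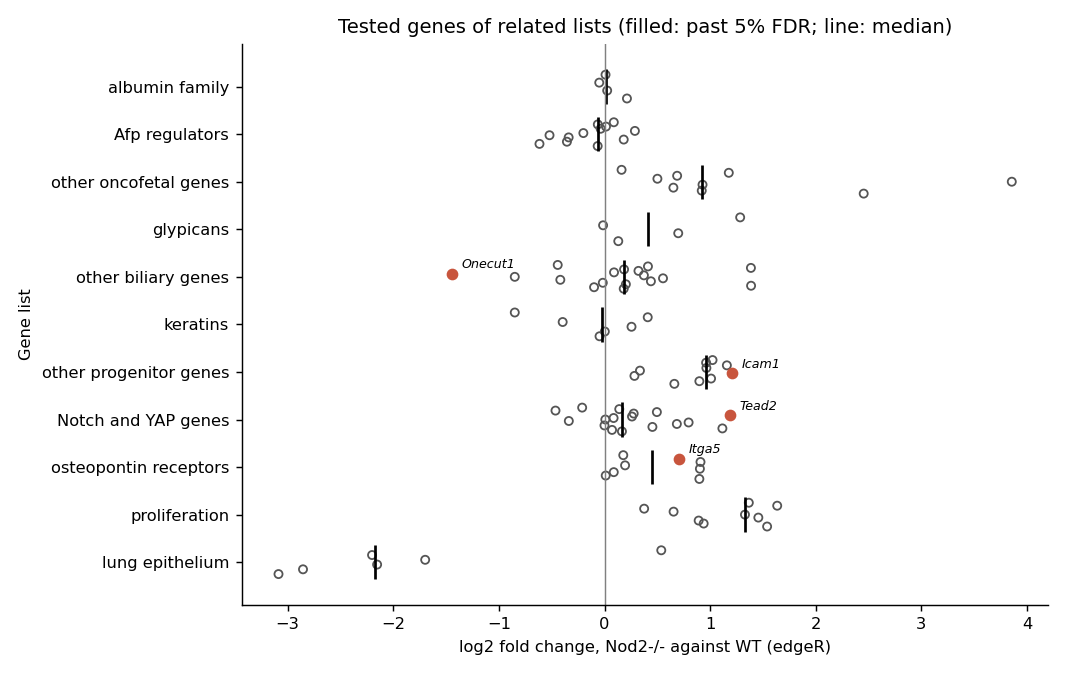
Log2 fold changes by edgeR of *Nod2*-/- against WT for the tested genes of lists related to the markers, and of lung epithelial genes. Circles are genes, filled and named where past 5% FDR, and the black lines are list medians, 0.96 for other progenitor genes, 1.33 for proliferation and -2.18 for lung epithelium.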

How the data were processed

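RNA from the livers of 6 WT and 7 *Nod2*-/- mice was sequenced as paired reads from stranded poly(A) libraries. The authors trimmed the reads with Trimmomatic 0.33, mapped them with TopHat2 2.1.1 to GRCm38 with GENCODE annotation, and deposited whole-number counts per gene without normalization. The counting program, its use of strand and its handling of reads with several matches are not given in the sources used here. The table holds 53465 genes, and 1 entry without an identifier was left out. Gene symbols and positions come from GENCODE M21 (53274 genes found) and promoter sequences from RefSeq, which had an entry for 7 of the 10 markers.

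Libraries of a genotype differed by more than sampling noise in all 36 pairs (lowest chi-square per degree of freedom 10.7), and each is 1 sample. The 13545 genes that passed filterByExpr, which hold 99.9% of counts, went into edgeR 4.0.16 under R 4.3.3 (TMM, glmQLFit and glmQLFTest, two-sided, no covariate) with Benjamini-Hochberg adjustment and a threshold of 0.05. DESeq2 1.42.0, the authors' tool, and voomWithQualityWeights of limma 3.58.1 were alternatives. Exact permutation tests used mean log2(normalized count + 1) over 1716 splits of the mice. In simulated data for this comparison, with 13545 genes, edgeR called 75 of 100 genes changed by 1 and 97 of 100 changed by 2 on the log2 scale. The changed genes were picked at random from all genes tested. Each member spread more within genotypes than the median gene, so this recovery need not hold for the members.

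The members, the lists and the tests were chosen with earlier results of these data known. The genes named are the 10 members, for each related list those past 5% FDR or otherwise the 2 non-members with the lowest p, and for each member the 3 most similar genes, of which the first is given. Mice are the replicates, and totals of 13824780 to 20579984 counts set the counting precision.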

Additional observations from a re-analysis of the deposited data

Results flagged for a closer look

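Within each genotype, the highest and lowest mouse of each member were compared with the rest by Dixon's test on log2 levels. Its 95% limit was used, which chance passes in about 1 in 20 groups. The log2 scale draws high values closer, and the test was not run on unlogged counts. A mouse not listed here can therefore still be far from the rest in normalized counts, as W6 was for *Krt19*. Of 20 groups, 3 held such a mouse. *Afp* in W3 was 2257 normalized counts, far above the other WT mice. *Cd24a* in N7 was 265 normalized counts, the mouse in which all 10 neutrophil genes were highest. *Krt19* in N1 was 10.6 normalized counts, low against the other *Nod2*-/- mice but inside the WT range.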

How the results depend on the processing

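Sizes and directions of the 10 markers held for RLE normalization, a robust fit, a minimum of 10 counts in each mouse (which left *Krt7* untested), no filter, library sizes without the 20 most abundant genes, ratios of group means and pseudocounts of 0.5 and 5. Other settings changed the counts of genes past 5% FDR, which were 88 higher and 69 lower over all genes and 1 higher and 0 lower among the markers. DESeq2 gave 605, 549, 2 and 0, voom 519, 324, 3 and 0, and leaving out W3 and N7 together 408, 159, 4 and 0. Leaving out 1 mouse at a time, or W3 and N7 together, gave 20 to 698 higher and 20 to 459 lower genes over all, and 0 to 4 higher markers, with the highest counts without W3. The log2 fold change then ranged from -0.22 to 2.99 for *Afp* (below 0 in 8 fits), -0.12 to 1.70 for *Prom1* (below 0 in 6), -0.23 to 0.18 for *Krt7* (above 0 in 5), -0.55 to 0.32 for *Krt19* (above 0 without W6 alone), 0.048 to 2.21 for *Gpc3*, 0.84 to 2.33 for *Golm1*, 1.10 to 1.77 for *Spp1*, 0.66 to 1.56 for *Cd24a*, 0.12 to 0.53 for *Epcam* and 1.15 to 1.46 for *Sox9*. *Krt7* was also positive with voom (0.16) and with the replicate block (0.072).

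With the replicate number as a block, 17 genes were higher and 18 lower, and 0 markers passed (*Sox9* 1.33, adjusted p = 0.0942 by edgeR). The same-number correlations of deviations were 0.037, -0.15, -0.086, -0.30, -0.042 and 0.29. They have no reference to be compared with, so they cannot tell whether equal numbers share a cage or a batch. At 7.18 to 26.9 normalized counts *Krt7* is limited by depth.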

Other observations

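*Dmbt1*, a secreted mucosal glycoprotein gene of the biliary list that was chosen for mention after its values were seen, had 794 normalized counts in W6, at most 2.19 in the other WT mice and at most 9.52 in *Nod2*-/- mice. W6 was also the highest of all 13 mice for *Krt19*, *Epcam* and *Muc1* (40.1 normalized counts), a mucin gene of duct epithelium.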
